A study of Mus musculus with 3 samples.

Results

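The meiotic strand exchange genes are 9 mouse genes, Dmc1, Psmc3ip, Mnd1, Brca2, Hsf2bp, Meiob, Spata22, Rad51ap1 and Rad54l, chosen by name for the step of recombination that they serve. Each was described by the H3K4me3 peaks with a centre within 1 kb of any of its annotated transcript starts (GENCODE vM21, build mm10), by the broad peak over the start, and by the peaks elsewhere in the gene. All 9 were found among the 21755 protein-coding genes annotated on chromosomes 1 to 19 and X, and all 9 stayed in whether or not they had a peak.

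H3K4me3 ChIP-seq was measured in whole adult testis of (C57BL/6J x CAST/Eij)F1 mice with the Prdm9 genotype Humanized/CAST, hereafter Prdm9 Hum/Cast. In the humanized allele the DNA-binding zinc fingers of PRDM9 are those of a human allele, and the other allele is that of the CAST parent. There were 2 ChIP libraries, made with the antibody Abcam ab8580, and 1 input library without antibody, all of this 1 genotype, so no groups are compared. The sources disagree on the animals, littermates in the paper and a single male in the labels, and with a single male differences between the libraries would be technical only.

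During meiosis, DNA breaks are cut back to single strands, and a recombinase filament on such a strand finds and invades the matching sequence of the homologous chromosome. DMC1 is the meiosis-specific recombinase. PSMC3IP (HOP2) and MND1 form a complex that stimulates strand invasion, BRCA2 loads the recombinase, HSF2BP binds BRCA2 in meiotic cells, MEIOB and SPATA22 form a complex on single-stranded DNA, RAD51AP1 helps strands to pair, and RAD54L is a motor protein that acts with the recombinase filament. H3K4me3 marks the nucleosomes around active promoters, and in germ cells PRDM9 writes the same mark at the sites where it binds. In each cell, breaks form near only a small part of these sites.

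Fragments that cover narrow peak centres came, over the 101978 peaks, to 17621116 for replicate 1, 19094837 for replicate 2 and 1250138 for the input. These totals mix sequencing depth with the enrichment of the ChIP libraries at called peaks. The lower total of the input is therefore not a measure of its depth. Enrichment is the authors' estimate of the ChIP signal over local background from both replicates together, as a ratio in which 0 is none. Regions with peaks shared between earlier mice that had no Prdm9 allele in common, 36243 in all, are called PRDM9-independent. A peak with its centre outside them counted as PRDM9-dependent. Of the marker lists, 12 of 12 germ cell genes had a start peak (median enrichment 38.5), as did 6 of 6 Sertoli cell genes (9.77), 5 of 6 Leydig cell genes (10.3) and 1 of 9 genes of other tissues (Hbb-b1 was not matched). Over all protein-coding genes 77.4% had one, with a median of 37.6. The germ cell genes began at 9.43 (Tnp1), within the range of the Sertoli cell genes, which reached 17.5. The start peaks of Fshr, a Sertoli cell gene, and Neurod1, the 1 gene of other tissues, were PRDM9-dependent. Whole testis mixes germ, Sertoli and Leydig cells, so fewer cells with a mark and less mark per cell cannot be told apart.

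All 9 strand exchange genes had a narrow H3K4me3 peak within 1 kb of a start, where 77.4% of all protein-coding genes had one. All 9 strongest start peaks were PRDM9-independent, as were 91.8% of those of all protein-coding genes with a start peak. Their enrichment ran from 14.3 at Dmc1 to 88.9 at Psmc3ip, a range of 6.20 times, with a median of 55.1. Over all 16844 protein-coding genes with a start peak the median was 37.6, with an interquartile range of 14.7 to 65.3. Of the 9 genes, 5 lay above that median and 4 below it, and 3 lay above the upper quartile. Over all genes with a start peak, the median was 62.9 where a protein-coding gene started on the opposite strand within 1 kb. It was 31.5 in the others. Such a neighbour was present at 4 of the 9 genes, and its part in their median was not tested.

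The promoters of the genes at the ends of this order are shown first, since they carry the most and the least enriched start peaks. They are read from GRCm38.p6 on the minus strand, 5′ to 3′, from 250 bases before the main start to 30 from it on, at chr11:101095407-101095686 for Psmc3ip and chr15:79605079-79605358 for Dmc1. Capitals mark matches to the motifs searched, which are CCAAT in Psmc3ip, and GGGCGG on the opposite strand and TTTGGCGC in Dmc1.
Psmc3ip: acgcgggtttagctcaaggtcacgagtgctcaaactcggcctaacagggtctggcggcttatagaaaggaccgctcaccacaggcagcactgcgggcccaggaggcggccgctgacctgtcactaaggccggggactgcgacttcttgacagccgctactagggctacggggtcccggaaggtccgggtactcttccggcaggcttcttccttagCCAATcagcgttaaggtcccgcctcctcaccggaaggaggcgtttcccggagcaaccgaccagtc
Dmc1: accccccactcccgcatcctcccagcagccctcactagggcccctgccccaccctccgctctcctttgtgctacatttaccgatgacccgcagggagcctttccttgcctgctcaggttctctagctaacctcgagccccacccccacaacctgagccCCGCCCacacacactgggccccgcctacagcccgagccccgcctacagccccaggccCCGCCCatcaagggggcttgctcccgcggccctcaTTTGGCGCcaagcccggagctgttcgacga

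Dmc1, the gene of the meiotic recombinase, had the weakest start peak of the 9. Its centre, at position 79604964 of chromosome 15, lay 135 bp downstream of the nearest start and was covered by 416 fragments of replicate 1, 475 of replicate 2 and 29 of the input. The enrichment of 14.3 stood at percentile 24.4 of all protein-coding genes with a start peak, just under the lower quartile. By fragments summed over both ChIP libraries, the same peak stood at percentile 38.3, and its input of 29 fragments was above the median of 19 over those genes. Both replicates were the lowest of the 9 genes. The broad peak over the start was 2800 bp wide, with 1492 bp upstream of the main start and 1307 bp downstream. Dmc1 itself spans 79561497 to 79605109 on the minus strand, with 5 annotated transcripts.

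The partners PSMC3IP and MND1, which act as 1 complex, had start peaks of different height. At Psmc3ip, the centre at position 101095666 of chromosome 11 was covered by 1146, 1312 and 13 fragments in replicate 1, replicate 2 and the input, an enrichment of 88.9 at percentile 90.2. At Mnd1, the centre at position 84155634 of chromosome 3 was covered by 752, 844 and 27 fragments, an enrichment of 27.7 at percentile 40.7. By fragments summed over both ChIP libraries, Psmc3ip stood at percentile 67.6 and Mnd1 at percentile 52.6. The median input over all protein-coding genes with a start peak was 19 fragments, above that of Psmc3ip and below that of Mnd1. Rad51ap1, Brca2 and Hsf2bp had more ChIP fragments than Psmc3ip in both replicates. Psmc3ip was higher than Mnd1 in both replicates and lower in the input. In fragments of both ChIP libraries per input fragment, Psmc3ip had 189 (95% exact interval 110 to 356) and Mnd1 59.1 (40.5 to 89.98), so the intervals, which cover counting error only, did not overlap. The broad peak was 3800 bp wide at Psmc3ip, a gene of 3614 bp, and 2200 bp at Mnd1, a gene of 67854 bp, and the whole of that at Mnd1 lay in PRDM9-independent regions.

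BRCA2 and its meiotic partner HSF2BP had start peaks above the median of all genes. At Brca2, the centre at position 150522769 of chromosome 5 lay 79 bp downstream of the nearest start and had 1747, 1686 and 29 fragments, an enrichment of 55.6 at percentile 66.3. At Hsf2bp, the strongest centre at position 32036590 of chromosome 17 had 1549, 1516 and 21 fragments, an enrichment of 68.6 at percentile 77.8. These were the only members of the 9 at which replicate 1 had more fragments than replicate 2.

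Both genes also had another start peak, at a start inside the gene. In Hsf2bp, position 32034353 lay 155 bp downstream of an inner protein-coding start, with 900, 938 and 18 fragments and an enrichment of 47.9. A single broad peak of 4100 bp held both Hsf2bp centres. In Brca2, position 150565959 lay 582 bp upstream of the start of a noncoding transcript inside the gene, with 105, 130 and 8 fragments and an enrichment of 13.7. An antisense gene, Gm42529, starts 115 bp from that noncoding start on the opposite strand, so the mark there cannot be given to either transcript. The broad peak over these inner starts was 5800 bp wide, against 2300 bp for the one over the main start of Brca2.

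MEIOB and SPATA22, which bind single-stranded DNA together, differed in the order by enrichment and by fragments. Meiob had 901, 969 and 35 fragments at position 24804540 of chromosome 17, 181 bp downstream of the nearest start, with an enrichment of 25.02 at percentile 37.8. Spata22 had 440, 499 and 8 fragments at position 73329860 of chromosome 11, 119 bp downstream, with an enrichment of 55.1 at percentile 65.9. Spata22 had fewer ChIP fragments than Meiob in both replicates, and its higher enrichment went with the lowest input of the 9 genes. Its interval of ChIP fragments per input fragment, 59.3 to 273, overlapped that of Meiob, 38.3 to 76.9, and is wide because 8 input fragments stand behind it.

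The genes of the accessory factors RAD51AP1 and RAD54L also had start peaks of different height. Rad51ap1 had 2137, 2220 and 26 fragments at position 126939377 of chromosome 6, 169 bp downstream of the nearest start, with an enrichment of 78.8 at percentile 84.8. These were the most ChIP fragments of the 9 genes in both replicates. Rad54l had 459, 566 and 16 fragments at position 116123947 of chromosome 4, 257 bp upstream of the nearest start, with an enrichment of 30.0 at percentile 43.2. The intervals of ChIP fragments per input fragment, 114 to 257 for Rad51ap1 and 39.3 to 113 for Rad54l, did not overlap.

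**Figure D1:**
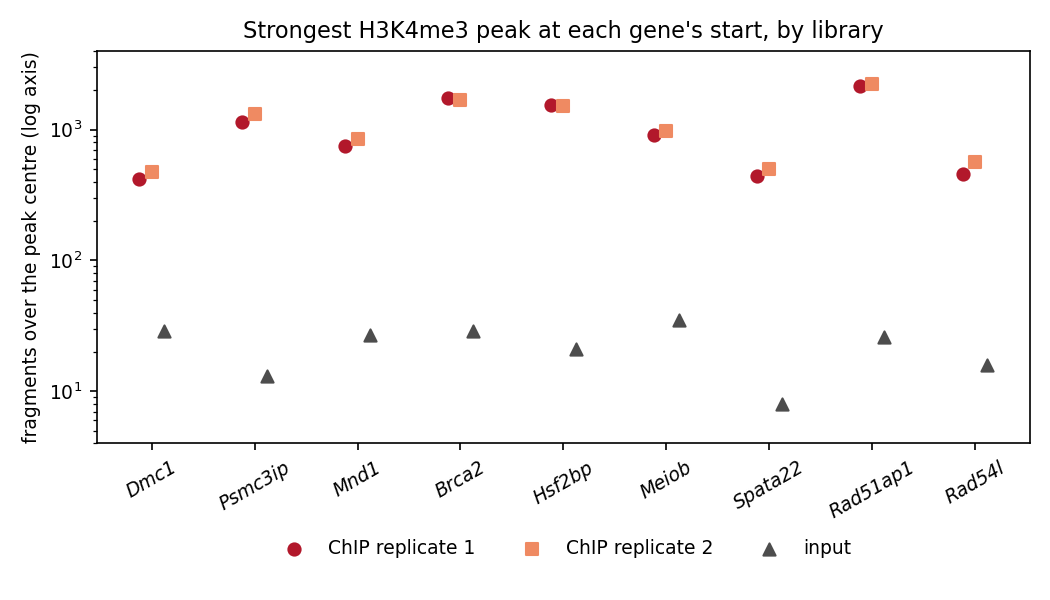
Fragments over the centre of the strongest start peak of each of the 9 genes in replicate 1, replicate 2 and the input (log axis). The replicates run from 416 and 475 at Dmc1 to 2137 and 2220 at Rad51ap1, and the input stays between 8 and 35. In proportion, the replicates are furthest apart at Rad54l, with 459 and 566.

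By enrichment the order was Psmc3ip, Rad51ap1, Hsf2bp, Brca2, Spata22, Rad54l, Mnd1, Meiob and Dmc1. All 8 pairs of neighbours in this order had overlapping intervals of ChIP fragments per input fragment, which does not show that neighbours are equal. Spata22 had fewer ChIP fragments than either of its neighbours in both replicates, and its place goes with its low input. Of all 36 pairs of genes, 13 had intervals that did not overlap. Dmc1, with 30.7 ChIP fragments per input fragment (21.2 to 46.1), did not overlap 5 of the other genes, which were Psmc3ip, Rad51ap1, Hsf2bp, Brca2 and Spata22. With replicate 1 or replicate 2 alone over the input, Dmc1 stood at percentile 25.4 and 26.0, and Psmc3ip at 88.2 and 90.8. Both versions use the same input fragments, so they do not check the error of the input. By summed ChIP fragments without the input, Dmc1 stood at percentile 38.3 and Psmc3ip at 67.6.

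**Figure D2:**
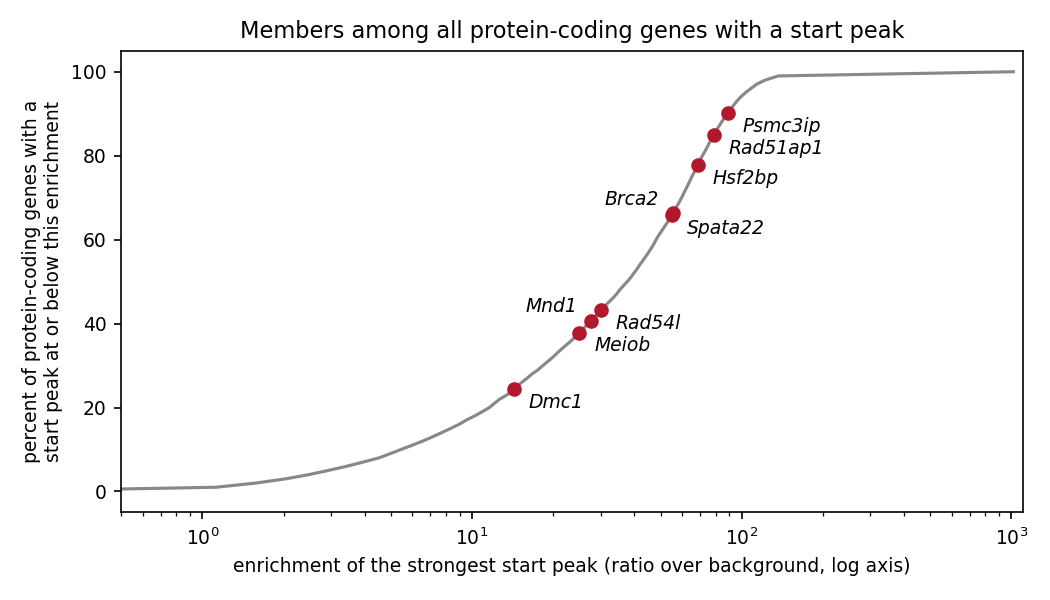
Enrichment (log axis) of the strongest start peak against its percentile among the 16844 protein-coding genes with a start peak, with the 9 genes marked on the curve of all genes. Dmc1 lies at percentile 24.4 and Psmc3ip at percentile 90.2, with 5 of the 9 genes above the median of 37.6.

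The replicates differed at 0 of the 9 strongest start peaks after Benjamini-Hochberg adjustment over all narrow peaks (exact two-sided binomial test of the 2 libraries), where they differed at 0.804% of all narrow peaks and at 4.20% of the strongest start peaks of protein-coding genes. At an unadjusted p under 0.05 there were 3, Brca2, Hsf2bp and Rad54l, where 9.08% of all narrow peaks lay under it. The lowest was Brca2 (exact p = 0.000717, adjusted p = 0.0726), with a replicate coefficient of variation of 8.18% after scaling to equal totals. That coefficient ran from 0.535% at Meiob to 9.12% at Rad54l over the 9 genes, and its median over all protein-coding genes was 4.48%. With the replicates scaled by the median ratio over peaks, 2 of the 9 passed the adjusted test, Brca2 (adjusted p = 0.00483) and Hsf2bp (adjusted p = 0.0308), where 1.40% of all narrow peaks did (exact two-sided binomial test). At both genes replicate 1 was then the higher. A beta-binomial test, which allows extra spread between libraries, called 0 of the 9 and 0.0157% of all narrow peaks. For the unadjusted threshold, the median ratio and the beta-binomial test, shares are given over all narrow peaks only. In the first adjusted test start peaks were called at 4.20% against 0.804%, so these shares are not a like comparison for the 9 genes.

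The centre lay downstream of the nearest start in 6 of the 9 genes, by 79 to 181 bp, and upstream in Psmc3ip, Hsf2bp and Rad54l, by 230, 241 and 257 bp. Among all protein-coding genes with a start peak, 22.5% had the centre upstream. A protein-coding gene started on the opposite strand within 1 kb of 4 of the 9 genes, against 15.7% of all protein-coding genes with a start peak. Rrp1b started 42 bp from Hsf2bp, Aspa 145 bp from Spata22, Pomgnt1 150 bp from Rad54l and D6Wsu163e 375 bp from Rad51ap1, and Gm49340 shares the start of Spata22 on the same strand.

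The peak could belong to the neighbour in some of these genes. The centre assigned to Hsf2bp lay 161 bp downstream of the nearest of several annotated starts of Rrp1b, which is not the one closest to Hsf2bp, and that assigned to Rad54l lay 107 bp downstream of the start of Pomgnt1. At Spata22 the centre lay 119 bp downstream of the start that it shares with Gm49340. At these distances the fragments cannot be divided between the paired genes. Over all genes the centre was upstream in 44.7% of those with a protein-coding gene starting on the opposite strand within 1 kb and in 18.4% of the others. Psmc3ip had its centre upstream without any other annotated start within 1 kb.

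**Figure D3:**
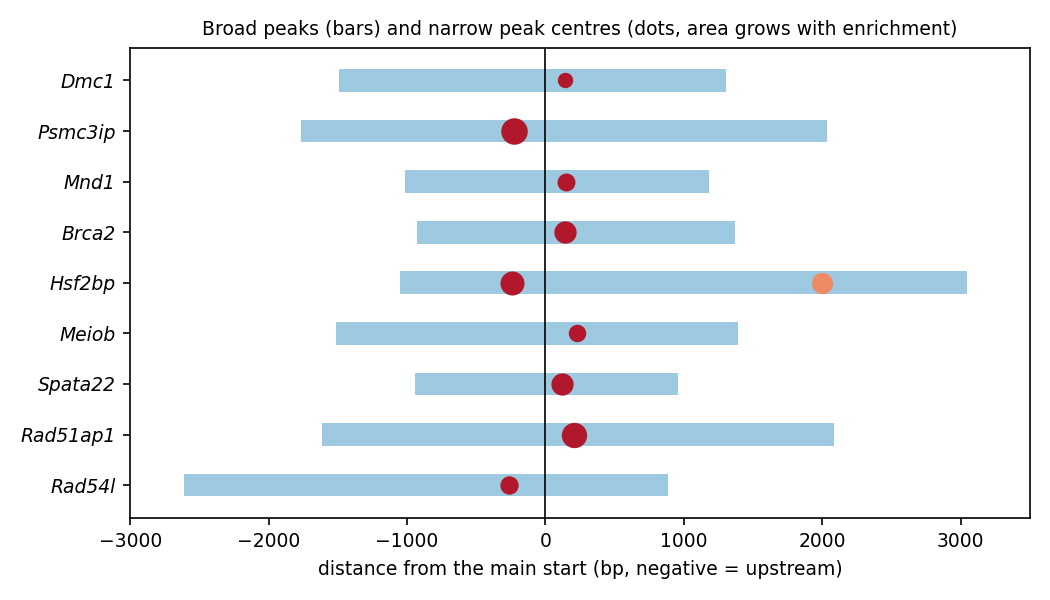
Broad peak (bars) and narrow peak centres (points) around the main start of each of the 9 genes, in bp from the start with transcription to the right, point area growing with enrichment and the paler point giving the inner start peak of Hsf2bp. Centres lie downstream of the nearest start in 6 genes and upstream in Psmc3ip, Hsf2bp and Rad54l, and the Rad54l bar reaches 2615 bp upstream but 884 bp downstream.

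All 9 genes also had a start inside a broad peak, as did 76.5% of all protein-coding genes. The broad peaks over the main start were between 1900 bp wide at Spata22 and 4100 bp at Hsf2bp, with a median of 2900 bp against 3300 bp over all protein-coding genes. With the widest broad peak over any start of each gene, which takes the inner peak of Brca2, the median was 3500 bp against 3400 bp. Rad54l had a one-sided broad peak, with 2615 bp on the side of Pomgnt1 and 884 bp within Rad54l. That of Hsf2bp leaned as far the other way, with 1051 bp upstream and 3048 bp downstream of the main start. Rad51ap1, between these in width, had 3700 bp, with 1613 bp upstream and 2086 bp downstream. At Meiob the broad peak was 2900 bp wide, with 1510 bp upstream and 1389 bp downstream, and the 1900 bp at Spata22 were split into 940 and 959 bp.

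Short motifs known from testis and cell cycle promoters were searched on both strands of the 300 bases from 250 before to 50 after the main start. CCAAT, the motif of NF-Y, was found in 5 of the 9 promoters and in 38.4% of all 21750 protein-coding promoters. In 4 of the 5, Psmc3ip, Rad51ap1, Spata22 and Rad54l, a match began 35, 36, 44 and 55 bases before the start, and the match in Meiob began 220 bases before it. A CCAAT between 60 and 30 bases before the start, a window chosen after these matches were seen, was found in 7.94% of all promoters. A match is a description of letters and not of binding. The cores of 3 of these promoters, from 100 bases before the start to 20 from it on, are shown 5′ to 3′ with the CCAAT, or ATTGG for the opposite strand, in capitals. They are chr11:73329641-73329760 on the plus strand, chr6:126939568-126939687 on the minus strand and chr4:116123666-116123785 on the minus strand of GRCm38.p6.
Spata22: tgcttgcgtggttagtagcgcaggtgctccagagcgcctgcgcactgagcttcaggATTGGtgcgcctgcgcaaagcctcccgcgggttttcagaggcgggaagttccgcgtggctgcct
Rad51ap1: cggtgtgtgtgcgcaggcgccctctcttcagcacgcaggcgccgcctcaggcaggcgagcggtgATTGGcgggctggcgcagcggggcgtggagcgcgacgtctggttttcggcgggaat
Rad54l: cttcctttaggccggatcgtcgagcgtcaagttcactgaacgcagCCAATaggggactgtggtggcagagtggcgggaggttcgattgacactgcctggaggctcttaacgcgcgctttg

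GGGCGG, the motif of SP1, was found in 4 of the 9, Dmc1, Mnd1, Meiob and Rad54l, and in 45.7% of all promoters. These 4 genes held the 4 lowest places in the order by enrichment, a description seen in the data and not tested. By ChIP fragments they were not the 4 lowest. Spata22, without the motif, had fewer than Rad54l, Mnd1 and Meiob in both replicates. Among all promoters of genes with a start peak, 57.1% held the motif. Meiob held 4 matches, beginning 85, 63, 32 and 23 bases before the start, and Mnd1 held 2, at 48 and 24 bases. TGACGTCA, the site of CREB family factors, was found in Brca2 alone of the 9, beginning 29 bases before the start, and in 2.53% of all promoters. The same core windows are shown for these 3 genes, with capitals for matches, from chr3:84155767-84155886 on the minus strand, chr17:24804211-24804330 on the plus strand and chr5:150522530-150522649 on the plus strand.
Mnd1: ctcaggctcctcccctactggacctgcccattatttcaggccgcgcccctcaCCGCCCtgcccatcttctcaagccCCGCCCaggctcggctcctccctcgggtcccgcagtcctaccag
Meiob: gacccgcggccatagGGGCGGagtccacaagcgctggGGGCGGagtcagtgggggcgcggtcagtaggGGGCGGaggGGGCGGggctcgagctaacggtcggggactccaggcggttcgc
Brca2: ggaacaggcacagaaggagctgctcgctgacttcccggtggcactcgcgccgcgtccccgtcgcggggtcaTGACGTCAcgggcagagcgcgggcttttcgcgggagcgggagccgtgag

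An E2F site, TTTCCCGC or TTTGGCGC, was found in 2 of the 9, Dmc1 and Brca2, and in 2.11% of all promoters. The match in Dmc1 began at the first base of the transcript, as shown above, and that in Brca2 177 bases before the start. The E-box CACGTG was found in Meiob, 111 bases before the start, against 7.83% of all promoters, and TATAAA in Brca2 and Rad51ap1, 200 and 210 bases before it, against 12.5%. None of the 9 held the MYB letters AACNGTT or AACTGNC, which 15.6% of all promoters held, and Hsf2bp held no match to any motif searched.

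In CpG content the 9 promoters lay between percentile 40.7 and 98.8 of all promoters. The CpG observed over expected ratio was 1.15 in Hsf2bp, 1.08 in Brca2 and 1.08 in Rad51ap1, which are at percentile 98.8, 96.5 and 96.4. These are the 3 genes with the most ChIP fragments. The ratio was lowest in Mnd1 at 0.423. Dmc1 had 0.576, near the median of 0.562 over all promoters but below the 0.695 over promoters of genes with a start peak. In the Dmc1 promoter 69% of the bases were G or C. Across 16840 genes with a start peak, the Spearman correlation of the ratio with the summed fragments was 0.602 and with enrichment 0.538, a description across genes, which share the libraries and are not independent replicates.

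PRDM9-dependent H3K4me3 peaks also lay inside the strand exchange genes, away from any start by more than 1 kb. There were 9 of these in 5 of the 9 genes, where 42.7% of all protein-coding genes had at least 1. The 352.131 kb of the 9 genes thus held 2.56 per 100 kb, against 2.60 per 100 kb over all protein-coding genes. All 9 lay in introns. Psmc3ip, Spata22, Rad51ap1 and Rad54l, the 4 shortest of the 9 genes, held none.

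Hsf2bp, the longest of the 9 genes, held 5 of these peaks in 91581 bp. Its strongest, at position 32027126 of chromosome 17, had 50, 70 and 7 fragments in replicate 1, replicate 2 and the input and an enrichment of 7.94, percentile 87.9 of all 62533 PRDM9-dependent narrow peaks. Among 1395 protein-coding genes of 73.3 to 114 kb, the median number was 2 and 15.0% had at least 5. The other peaks of Hsf2bp had enrichments of 3.70, 2.06, 1.75 and 0.562. At the last of these, position 31978896, the 16 and 15 ChIP fragments were fewer than the 21 of the input.

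The sequence of the strongest PRDM9-dependent peak in any of the 9 genes, the one at 32027126 in Hsf2bp, is shown for 300 bases around its centre, chr17:32026977-32027276 on the plus strand of GRCm38.p6. Capitals mark the confidence interval that the caller gave for the centre.
Hsf2bp: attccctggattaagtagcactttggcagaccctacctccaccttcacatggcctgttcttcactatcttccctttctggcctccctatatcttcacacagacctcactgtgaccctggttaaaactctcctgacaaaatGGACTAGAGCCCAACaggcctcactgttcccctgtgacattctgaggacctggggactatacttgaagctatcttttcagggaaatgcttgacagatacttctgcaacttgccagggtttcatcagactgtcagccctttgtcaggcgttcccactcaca

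Dmc1 held a single PRDM9-dependent peak, at position 79588166 in an intron, 16.942 kb from its main start. It had 44, 33 and 5 fragments, an enrichment of 7.12 at percentile 85.2, and a broad peak of 1700 bp. The enrichment there was about as high as at the strongest such peak of Hsf2bp, and below that of the start peak of Dmc1. Mnd1, Brca2 and Meiob also held 1 each, with enrichments of 3.16, 1.08 and 3.52. The peak in Brca2, with 10 and 8 ChIP fragments over 7 in the input, lay 1069 bp from the nearest PRDM9-independent region. The median over all PRDM9-dependent narrow peaks was 2.79.

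In addition, 3 PRDM9-independent peaks lay in the body of Hsf2bp and none in the bodies of the other 8 genes. That at position 31982543, in an intron, had 190, 194 and 10 fragments, an enrichment of 17.9 and a broad peak of 4000 bp, and so was higher than every PRDM9-dependent peak in the 9 genes. That at position 32013340 overlapped a coding exon, with 46, 62 and 7 fragments and an enrichment of 7.13, and that at position 31970334 had an enrichment of 2.22. No annotated start of Hsf2bp lies within 1 kb of these positions.

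**Figure D4:**
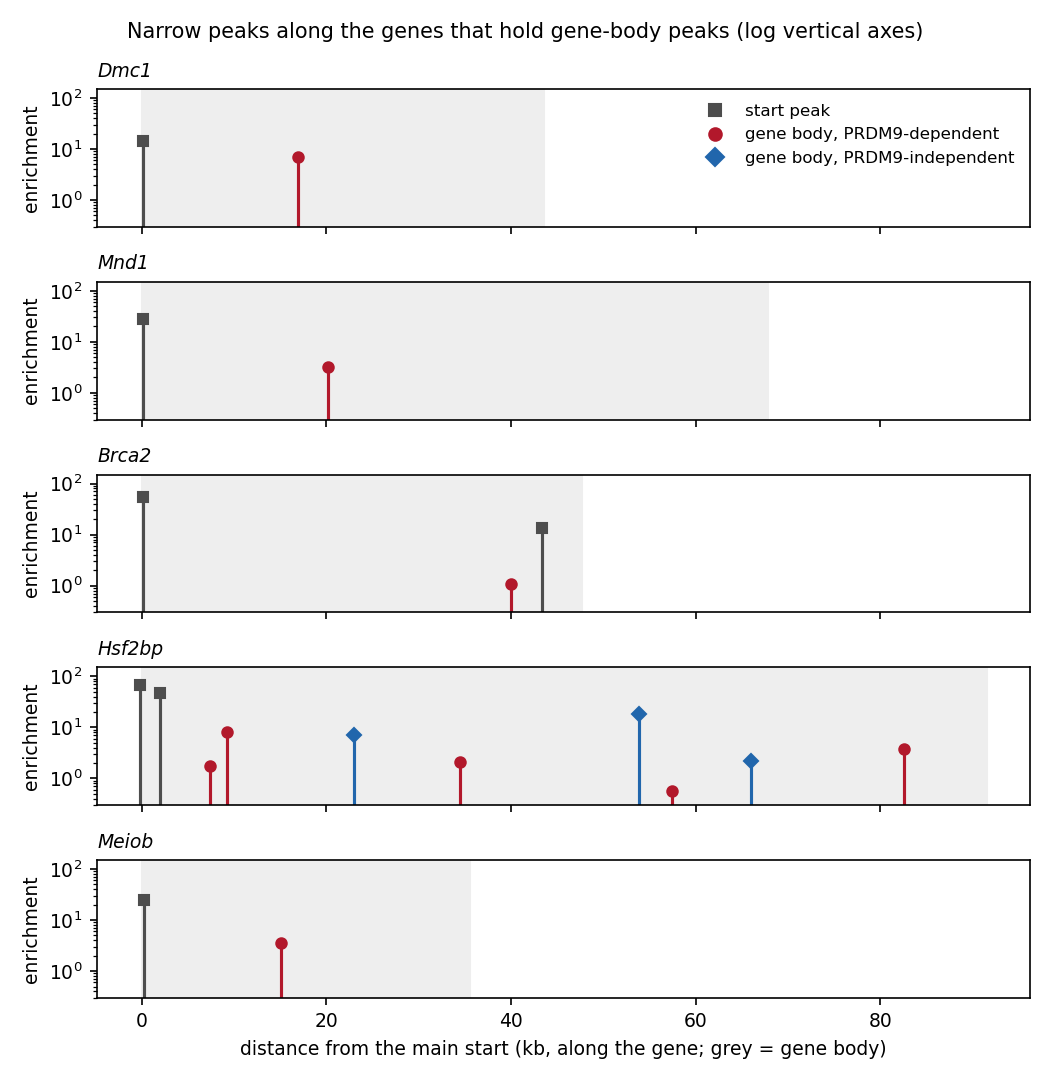
Enrichment (log vertical axes) of the narrow peaks in Dmc1, Mnd1, Brca2, Hsf2bp and Meiob against the distance from the main start in kb, with start peaks (squares), PRDM9-dependent (circles) and PRDM9-independent peaks (diamonds) marked and the gene in grey. Start peaks lie above the other peaks of their gene, and Hsf2bp alone holds PRDM9-independent peaks away from its starts.

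The wider pathway of strand exchange had start peaks of similar height. Of 28 further genes of the recombinase filament and its helpers, 27 were matched to the annotation, 1 of them by a synonym (Brme1), and Hrob was not matched. A start peak was found at 26 of the 27, where 77.4% of all protein-coding genes had one. Their median enrichment was 61.8, with a range of 18.3 to 149, and 20 of the 26 lay above the median of 37.6 over all genes.

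At the top of the pathway stood Sfr1, part of a complex that stabilises the recombinase filament, with 1614, 1550 and 10 fragments and an enrichment of 149. Rfwd3, a ubiquitin ligase that acts on RPA, had an enrichment of 90.07. Palb2, whose protein links BRCA1 to BRCA2, had 90.05, and Bard1, whose protein pairs with BRCA1, had 89.6. At the bottom stood Rad51b, which acts in recombination repair, with 289, 377 and 17 fragments and an enrichment of 18.3, which is still above that of Dmc1.

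The next lowest were Mcmdc2, an MCM-like gene needed for meiotic recombination, with 28.4, Xrcc3, which also acts in recombination repair, with 29.3, and Rad54b, a relative of Rad54l, with 31.4. Mcmdc2 was the single gene of the 26 at which the replicates differed (353 and 496 fragments, adjusted p = 0.0280 by the exact two-sided binomial test), a share no higher than the 4.20% over the strongest start peaks of all protein-coding genes. Brca1 had no narrow peak centre within 1 kb of a start. Its nearest centre, 1032 bp upstream, had 887, 1052 and 18 fragments and an enrichment of 50.6, and its start lay in a broad peak of 8700 bp.

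Lists for the neighbouring steps of meiosis had overlapping ranges of enrichment. A start peak was found at 77.4% of all protein-coding genes, and at 11 of 12 genes of break formation, with a median of 43.6. It was found at 14 of 15 genes of crossover formation, with 52.6 (Spo16 was not matched). At 9 of 9 genes of synapsis it was present, with 54.0, beside 55.1 for the 9 strand exchange genes. The highest values were 93.3, 72.3 and 113 in these lists, and 88.9 among the 9 genes. Iho1, annotated as Ccdc36, and Shoc1 were the genes of these lists without a start peak. The differences between lists were not tested.

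**Figure D5:**
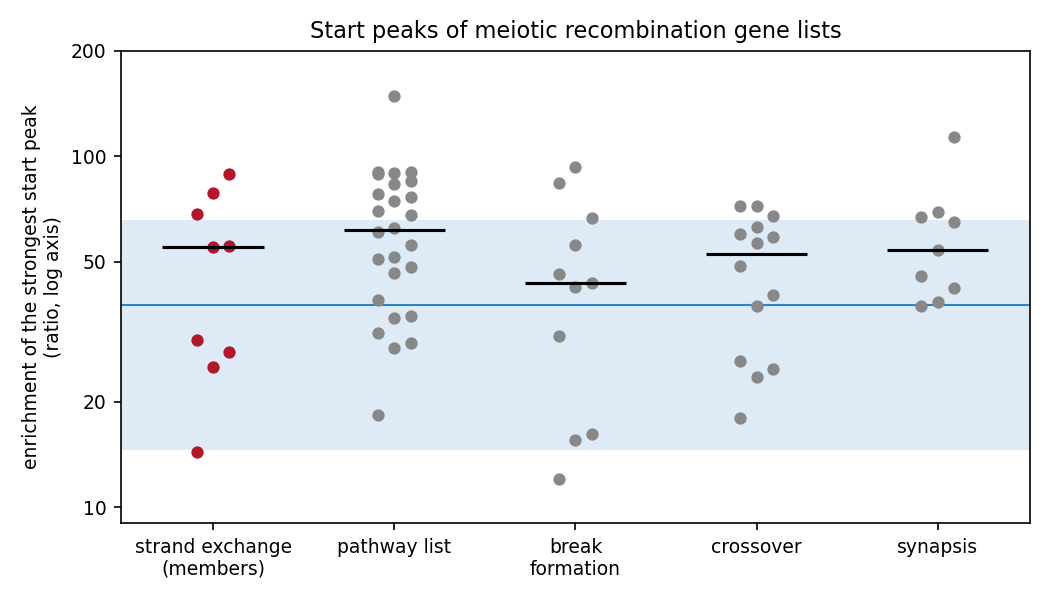
Enrichment (log axis) of the strongest start peak for each gene (points) of the strand exchange genes, the wider pathway and the lists of break formation, crossover and synapsis genes, with list medians as black bars. The blue line and band give the median of 37.6 and the interquartile range of 14.7 to 65.3 over all protein-coding genes with a start peak, and all 5 list medians, from 43.6 to 61.8, lie above the line.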

How the data were processed

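H3K4me3 ChIP-seq of whole adult testis gave 2 ChIP libraries and 1 input library of 1 genotype. Reads were aligned by the authors to mm10 using BWA followed by Stampy. Duplicates were dropped using SAMtools and coverage came from bedtools. Peak calling was by likelihood ratio, jointly over the replicates and against the input. The deposited counts are fragments over each narrow peak centre in each library, without normalization. The deposited enrichment is a ratio over local background estimated by the authors, imprecise where the input is low. Each narrow peak has a deposited p-value from the authors' caller, under 1e-06 for narrow peaks and 1e-05 for broad bins of 100 bp, and 13523 are written as 0. Broad peaks and PRDM9-independent regions are positions only. The smallest gap between narrow centres was 857 bp.

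Peaks were assigned to genes of GENCODE vM21 by centres within 1 kb of a start, the strongest by enrichment standing for the gene. Replicates were compared by an exact two-sided binomial test against replicate 1's share of all summed fragments (48.0%), adjusted by Benjamini-Hochberg over 101978 peaks at 0.05, and tested on simulated data. The test compares 2 libraries. Intervals are exact (Clopper-Pearson, 95%) and cover counting error only. Percentiles are by enrichment among protein-coding genes with a start peak. Alternatives were 500 bp and 2 kb, other choices of start, the nearest peak, a p under 1e-10, summed coverage, other scaling, a beta-binomial test, and leaving out each replicate, with the other's fragments over the input after adding 1. Named genes are all 9 members, genes starting within 1 kb of them, and of the pathway the 4 highest and 4 lowest and those without a start peak. A further gene of the rule is not reported here. Members, lists and motifs were chosen with earlier results of these data known. The core promoters shown were chosen after their values were seen. Sequences came from GRCm38.p6. Tools were scipy 1.17.1, pandas 2.3.3, numpy 2.4.6 and matplotlib 3.10.9 under Python 3.11.15.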

Additional observations from a re-analysis of the deposited data

How the results depend on the processing

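Under distances of 500 bp and 2 kb, a p under 1e-10 and each replicate left out, all 9 strand exchange genes had a start peak wherever the count was recomputed, and the wider pathway had 25 to 27. With the nearest peak in place of the strongest, which moves Hsf2bp to its inner start at 47.9, the median enrichment of the 9 genes was 47.9 in place of 55.1 and their median percentile 63.0 in place of 65.9. The percentile was 57.3 by summed ChIP coverage, and 62.3 to 64.5 with a replicate left out. Scaling by the median ratio gave 2 genes with differing replicates in place of 0, and the beta-binomial test 0. The median width was 2900 bp over the main start, an alternative chosen after seeing the data, in place of 3500 bp. The number of PRDM9-dependent peaks in the genes was 6 to 9. No paired analysis was possible because there is a single genotype and the input has no replicate. Enrichment is limited by the input, which had 8 to 35 fragments at these peaks, and no test between animals could be made.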

Other observations

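Across the 9 genes the Spearman correlation of the promoter CpG ratio was 0.65 with summed fragments and 0.533 with enrichment, a description over genes that share the libraries.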
